A study of Homo sapiens with 6 samples.

Results

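CRISP3, MERTK, STAP1, CALB1, NFILZ and HPGD are 6 genes that differed widely between K562 cells with and without induced Flag-PCBP1 and that belong to no common pathway. They were selected on large changes in level, with no overlap between the groups, in these same libraries, so that contrast is described for them without a test. They are 6 of 21045 genes tested and 6 of 308 differentially expressed genes, the calls being genes whose adjusted p was under 0.05 and whose log2 fold change was above 1 in size. Of all genes tested, 0.737% were called higher and 0.727% lower in +Dox, and 17.4% had all +Dox libraries above all −Dox libraries while 15.8% had all of them below. All 6 genes are called and separated, which is what they were chosen for: CRISP3, MERTK and STAP1 were higher in +Dox, and CALB1, NFILZ and HPGD were lower.

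PCBP1 is an RNA-binding protein that prefers cytosine-rich sequence, acts in splicing and RNA stability, and also carries iron to other proteins. K562 is an established human line from a chronic myeloid leukemia that expresses many red cell genes. Both groups here are the K562 flox line, grown from 1 clone with a landing site at AAVS1, into which recombinase-mediated exchange placed Flag-PCBP1 under a tet-inducible promoter together with puromycin resistance, and which was kept as a polyclonal, puromycin-selected line. The −Dox group (3 libraries) received no doxycycline (Dox) and the +Dox group (3 libraries) received Dox, at a dose and for a time not given in the sources used here. Dox and Flag-PCBP1 therefore changed together, and no library with Dox but without Flag-PCBP1 was analysed here. Nothing in the labels says that the libraries of a group came from separate cultures, so p-values measure the spread between these libraries.

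The libraries of polyA RNA held 74766040 to 84177316 estimated counts in −Dox and 70905656 to 82449808 in +Dox. Levels are given as CPM (estimated counts scaled to library size, normalized by TMM) to compare libraries, and as TPM, which is also scaled for transcript length, to compare genes. PCBP1 itself stood at 247, 269 and 267 CPM in −Dox and at 1029, 936 and 1037 CPM in +Dox. It was 3.83-fold higher in +Dox (log2 fold change 1.94, SE 0.06, edgeR adjusted p = 5.22e-10). The counts do not tell Flag-PCBP1 from the cell's own PCBP1. All 11 red cell and K562 markers of a fixed list, among them GATA1, TAL1, KLF1, HBG1, HBE1, HBZ, TFRC, BCR and ABL1, were tested, and HBG2 (fetal globin) was the most abundant at 9894 TPM.

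The 6 proteins work in different places. MERTK is a receptor tyrosine kinase of the TAM family (TYRO3, AXL and MERTK). It binds GAS6 or protein S, which in turn bind phosphatidylserine on dying cells, and it drives their engulfment by macrophages. STAP1 is an adaptor protein with PH and SH2 domains, known from B cells, that docks on tyrosine kinases and their receptors. CRISP3 is a secreted cysteine-rich protein of the CAP superfamily that is stored in neutrophil granules. CALB1 (calbindin) buffers calcium in neurons and in kidney, where vitamin D raises it. HPGD is the dehydrogenase that begins the breakdown of prostaglandins. NFILZ is a basic leucine zipper protein related to the repressor NFIL3, and little is known of it.

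The RefSeq start sites of MERTK, STAP1 and CRISP3 were those of their main transcripts, and that of NFILZ lay 4 bases inside its main transcript. The bases before them are printed for the 3 genes that rose together and for NFILZ, which fell the most. Each line gives the 250 bases upstream of the start from RefSeq (GRCh38.p14), on the gene's strand. Capitals mark CCNCNCCC, the letters bound by KLF-type zinc finger proteins, where matches may overlap.
MERTK, chr2:111898357-111898606, plus strand: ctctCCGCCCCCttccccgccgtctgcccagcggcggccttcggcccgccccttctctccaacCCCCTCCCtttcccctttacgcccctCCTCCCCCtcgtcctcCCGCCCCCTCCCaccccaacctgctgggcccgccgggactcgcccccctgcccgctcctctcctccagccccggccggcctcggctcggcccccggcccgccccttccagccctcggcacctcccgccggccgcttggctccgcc
STAP1, chr4:67558477-67558726, plus strand: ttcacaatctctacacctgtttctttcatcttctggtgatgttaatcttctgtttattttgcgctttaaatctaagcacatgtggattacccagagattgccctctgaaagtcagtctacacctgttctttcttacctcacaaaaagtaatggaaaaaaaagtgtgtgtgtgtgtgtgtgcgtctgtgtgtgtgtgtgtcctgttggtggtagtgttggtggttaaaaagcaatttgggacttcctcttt
CRISP3, chr6:49744389-49744638, minus strand: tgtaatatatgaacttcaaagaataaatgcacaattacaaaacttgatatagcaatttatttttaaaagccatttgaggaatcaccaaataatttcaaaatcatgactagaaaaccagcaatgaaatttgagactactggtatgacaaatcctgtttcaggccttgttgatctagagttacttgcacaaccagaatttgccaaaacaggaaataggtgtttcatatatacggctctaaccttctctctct
NFILZ, chr19:8655327-8655576, plus strand: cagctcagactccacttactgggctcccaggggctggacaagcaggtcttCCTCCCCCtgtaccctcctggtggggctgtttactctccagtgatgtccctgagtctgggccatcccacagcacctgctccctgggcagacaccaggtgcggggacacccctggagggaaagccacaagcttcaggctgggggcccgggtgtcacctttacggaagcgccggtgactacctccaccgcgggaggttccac

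The 3 genes that rose had unlike promoters. Over the 300 bases from 250 before to 50 after the start, MERTK had 56.3% C on its strand, more than 99.9% of 35116 RefSeq promoters, and 5 matches of CCNCNCCC. STAP1 had 18.0% C and CRISP3 19.7%, and neither held a match. The C-rich run of MERTK and the long TG repeat of STAP1 can be read in the lines above. NFILZ (33.3% C) and the main start of HPGD (34.0% C) held 1 match each, and the upstream start of HPGD, 405 bases away, held none. Of all these promoters 56.2% hold a CCNCNCCC match, so its presence sets none of the genes apart. The letters AGATAA of zinc finger factors such as GATA1 (10.3% of promoters), TGANTCA of AP-1 (7.71%), TTANNTAA of NFIL3 and PAR factors (5.63%) and TATAAA of the core promoter (11.5%) were searched on both strands and matched in none of these windows. CALB1 was not among the promoters searched.

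MERTK was the gene with the widest spread. It had 8, 11 and 161 counts in −Dox replicates 1, 2 and 3, which is 0.0945, 0.141 and 2.15 CPM. In +Dox it had 317, 392 and 345 counts, or 4.47, 4.63 and 4.25 CPM. The +Dox libraries were close to each other and all lay above −Dox, whereas −Dox replicate 3 stood 22.8-fold above −Dox replicate 1. The means were 0.797 ± 1.18 CPM in −Dox and 4.45 ± 0.194 CPM in +Dox (SD, n = 3), giving 2.50 (SE 0.70) as the log2 fold change. Against −Dox replicate 3 alone the +Dox mean was 2.07-fold higher, and against the mean of the other −Dox libraries (0.118 CPM) it was 37.8-fold higher. Without −Dox replicate 3 the log2 fold change was 5.23, and without −Dox replicate 1 it was 1.96. Among 14331 genes with a mean of at least 1 CPM, only 3 had a larger coefficient of variation in −Dox than MERTK (148%, against a median of 5.99%), while in +Dox that of MERTK was 4.35%. MERTK was not called by DESeq2, with a transcript length offset, or in edgeR without −Dox replicate 2 or without any single +Dox library.

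STAP1 was low in all libraries. Its counts were 82, 83 and 67 in −Dox and 230, 199 and 203 in +Dox. These are 0.969, 1.07 and 0.896 CPM against 3.24, 2.35 and 2.50 CPM, with +Dox replicate 1 the highest. The lowest +Dox library was 2.21-fold above the highest −Dox library. The mean went from 0.977 ± 0.0846 to 2.70 ± 0.476 CPM (SD, n = 3), giving 1.46 (SE 0.20) as the log2 fold change.

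CRISP3 had the largest increase of the 6 with all 6 libraries and no replicate block, while MERTK was larger without −Dox replicate 3 (log2 fold change 5.23 against 2.72 for CRISP3) and with the replicate block (3.31 against 2.67). It had 97, 87 and 94 counts in −Dox and 571, 606 and 590 in +Dox. In CPM this is 1.15, 1.12 and 1.26 against 8.04, 7.16 and 7.26. The groups were far apart and each was tight, the lowest +Dox library being 5.70-fold above the highest −Dox library. The mean went from 1.17 ± 0.0745 to 7.49 ± 0.482 CPM (SD, n = 3), which is 2.67 (SE 0.13) on the log2 scale. Among the 63 called genes that were higher in +Dox with a mean of at least 1 CPM, CRISP3 ranked 4, MERTK 5 and STAP1 24 by fold change.

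CALB1 was the most abundant of the 6. Its counts were 2911, 2728 and 3126 in −Dox and 773, 899 and 1040 in +Dox. The levels were 34.4, 35.0 and 41.8 CPM in −Dox and 10.9, 10.6 and 12.8 CPM in +Dox, with replicate 3 the highest in both groups. The lowest −Dox library was 2.69-fold above the highest +Dox library. The mean was 37.1 ± 4.13 CPM in −Dox and 11.4 ± 1.19 CPM in +Dox (SD, n = 3), which is 3.24-fold lower in +Dox (log2 fold change −1.70, SE 0.09).

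HPGD had the smallest change and the narrowest gap. Per length it stood at 7.55, 7.23 and 9.55 TPM in −Dox and 2.90, 3.71 and 3.75 TPM in +Dox. Normalized for library size, the levels were 11.3, 12.8 and 18.0 CPM in −Dox and 5.06, 5.53 and 6.92 CPM in +Dox. The groups did not overlap, but −Dox replicate 1 lay closer to +Dox replicate 3 than to −Dox replicate 3 on the CPM scale. The mean was 14.0 ± 3.50 CPM in −Dox and 5.84 ± 0.968 CPM in +Dox (SD, n = 3), which is 2.40-fold lower (log2 fold change −1.26, SE 0.16).

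NFILZ fell the most of the 6. It had 1479, 1198 and 1120 counts in −Dox and 165, 201 and 276 in +Dox. In CPM these are 17.5, 15.4 and 15.0 against 2.32, 2.38 and 3.40. The lowest −Dox library was 4.41-fold above the highest +Dox library. The mean was 15.9 ± 1.34 CPM in −Dox and 2.70 ± 0.606 CPM in +Dox (SD, n = 3), 5.90-fold lower in +Dox (log2 fold change −2.56, SE 0.14). Among the 73 called genes that were lower in +Dox with a mean of at least 1 CPM, NFILZ ranked 3, CALB1 14 and HPGD 39. In libraries of whole cultures, fewer cells that make an RNA and less of that RNA per cell cannot be told apart.

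**Figure D1:**
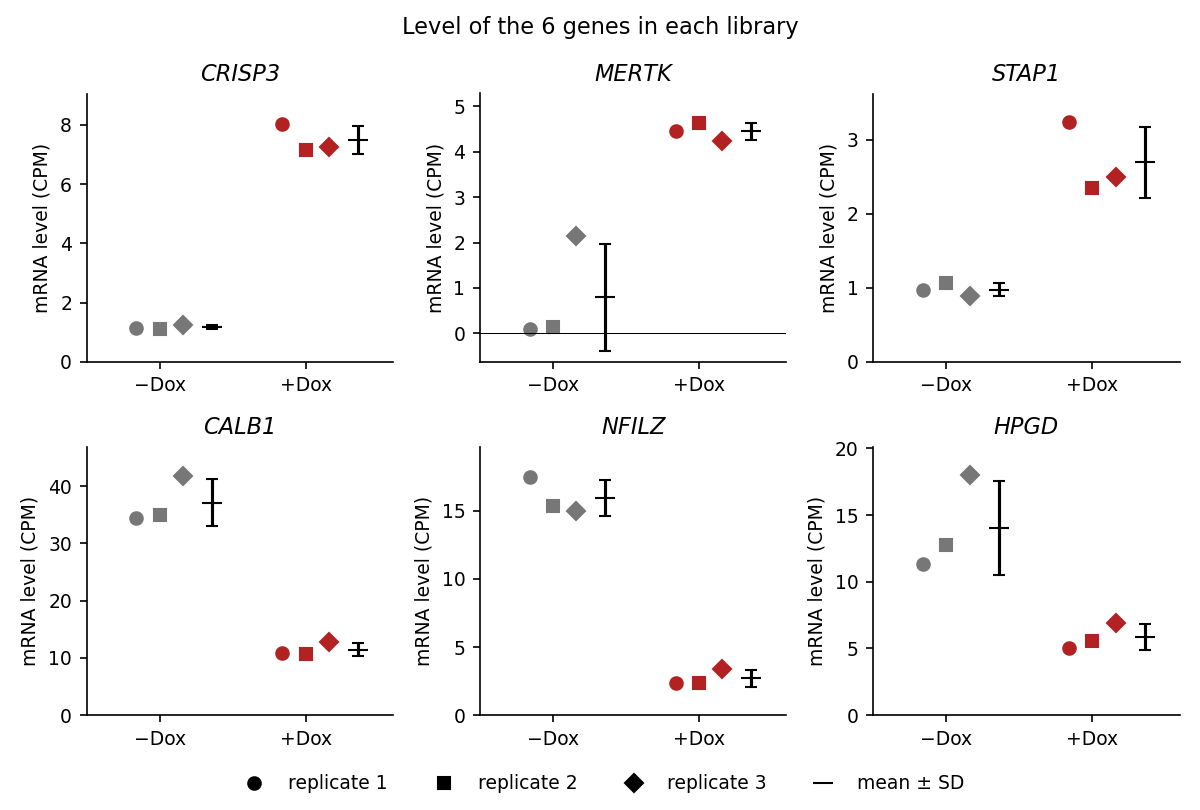
Level of each of the 6 genes (CPM, linear axis) in the 3 −Dox and 3 +Dox libraries; each marker is 1 library and the black bar beside it the mean ± SD. No gene's groups overlap, and MERTK in −Dox ranges from 0.0945 to 2.15 CPM.

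Among called genes with a mean of at least 1 CPM, those next in rank by fold change give the scale. CRISP3 lay below EPB42 (log2 fold change 2.83) and MERTK above FAXDC2 (2.05). STAP1 lay between IER5L (1.46) and the unnamed gene ENSG00000260793 (1.46). On the other side NFILZ lay between H3C14 (−3.08) and S1PR1 (−2.20), CALB1 between TMEM158 (−1.70) and TRDN (−1.62), and HPGD between PPP1R27 (−1.27) and CXCL2 (−1.24).

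**Figure D2:**
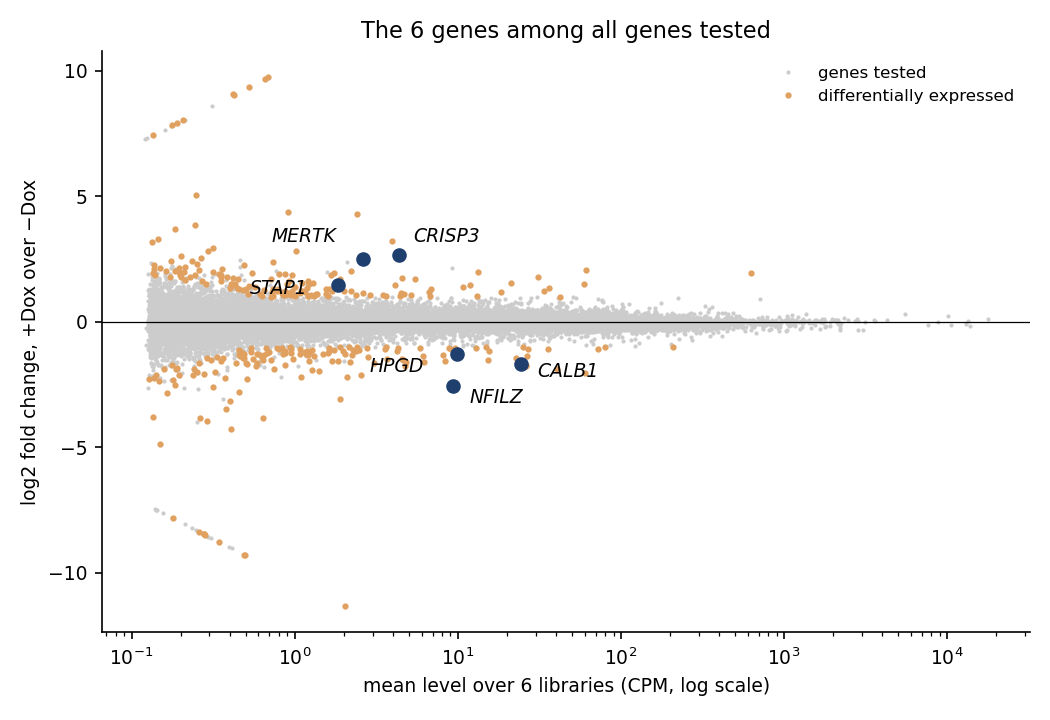
Log2 fold change (+Dox over −Dox) of the 21045 genes tested against their mean level over 6 libraries (CPM, log scale), with the 308 called genes in orange and the 6 genes in blue. The 6 genes have means of about 2 to 24 CPM and lie at the edge of the cloud for their level, with log2 fold changes between −2.56 and 2.67.

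Per length, the order of the 6 genes was not the same in the 2 groups. In −Dox the mean TPM was 17.6 for CALB1, 8.11 for HPGD, 3.22 for NFILZ, 0.614 for CRISP3, 0.561 for STAP1 and 0.246 for MERTK. The values of CRISP3 (0.575 to 0.662 TPM) overlapped those of STAP1 (0.519 to 0.602 TPM), and MERTK, at 0.0338 to 0.552 TPM, overlapped STAP1. In +Dox the mean TPM was 5.32 for CALB1, 3.78 for CRISP3, 3.45 for HPGD, 1.59 for STAP1, 1.25 for MERTK and 0.531 for NFILZ. CRISP3 (3.58 to 3.99 TPM) and HPGD (2.90 to 3.75 TPM) overlapped there, and no other neighbours in that order did. NFILZ thus went from the third place to the last. Among the genes tested, CALB1 moved from the 76.1 to the 57.4 percentile of TPM, NFILZ from the 50.6 to the 26.1, CRISP3 from the 28.2 to the 52.7 and MERTK from the 15.5 to the 37.9.

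The genes lie on 5 chromosomes of GRCh38, and STAP1 and HPGD lie far apart on chromosome 4. MERTK (ENSG00000153208.19) spans chr2:111898607-112029561 on the plus strand, and its main transcript MERTK-201 has 19 exons and encodes 999 residues. STAP1 (ENSG00000035720.8) spans chr4:67558727-67607337 on the plus strand, and STAP1-201 has 9 exons and encodes 295 residues. CRISP3 (ENSG00000096006.12) spans chr6:49727376-49744437 on the minus strand, and CRISP3-201 has 8 exons and encodes 258 residues. CALB1 (ENSG00000104327.7) spans chr8:90058608-90095475 on the minus strand, and CALB1-201 has 11 exons and encodes 261 residues. HPGD (ENSG00000164120.14) spans chr4:174490175-174523154 on the minus strand, and HPGD-202 has 7 exons and encodes 266 residues. NFILZ (ENSG00000268480.4) spans chr19:8630633-8681151 on the plus strand, and NFILZ-201 has 4 exons and encodes 289 residues. Of the 6, only HPGD shares exon bases with another annotated gene: 5.68% of its exon bases lie under ENSG00000251584 on the other strand, which had 4 to 20 counts and was not tested.

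Cytosine, which PCBP1 prefers in RNA, was low in the spliced main transcripts of 4 of the 6 genes. Introns were not searched. The main transcripts of HPGD, CALB1, STAP1 and CRISP3 had 17.2%, 18.6%, 18.8% and 19.0% C, against a median of 23.6% over the 21045 genes tested. MERTK had 23.0% and NFILZ 27.0%. The letters CCCNCCC, counted on the transcript strand, matched 4 times in NFILZ (0.87 per kb, at the 76.2 percentile, against a median of 0.224). They matched once each in HPGD and MERTK, and nowhere in CRISP3, CALB1 or STAP1. Of all genes tested, 45.2% had no match. Both the genes that rose and the genes that fell included transcripts without a match.

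Most counts of CRISP3 and STAP1 lay on their main transcripts in every library. The lowest count shares, 87.5% for CRISP3-201 and 86.0% for STAP1-201, were in +Dox replicate 1. CRISP3-201 held all CRISP3 counts in −Dox. In +Dox CRISP3-204, which differs by a longer exon (104 against 74 bases, chr6:49737325-49737428) and by its ends, took 71.3, 44.4 and 12.6 counts. STAP1-202 took 32.3 and 11.3 counts in +Dox replicates 1 and 2 and was listed at 0 in the other libraries. Salmon shares out reads that fit several transcripts, so these small amounts are estimates.

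For MERTK the transcripts differed between libraries of the same group. MERTK-201 held 0, 10.6 and 161 counts in −Dox and 313, 391 and 142 in +Dox. In +Dox replicate 3, 197 counts were given to MERTK-202, a transcript without the 421-base exon at chr2:111929120-111929540 that was listed at 0 in every other library. The 8 counts of −Dox replicate 1 lay on MERTK-203 (4.6) and MERTK-205 (3.3), annotated as a nonsense-mediated decay and a retained intron transcript. In −Dox replicate 3, by contrast, all 161 counts lay on MERTK-201, the form that encodes the whole receptor.

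NFILZ has a pair of start regions 24940 bases apart, and both were lower in +Dox, in a gene chosen for its fall. NFILZ-201, which starts at the downstream site, had 1163, 974 and 864 counts in −Dox and 120, 201 and 248 in +Dox. The transcripts from the upstream site had 316, 224 and 256 counts in −Dox, mainly on NFILZ-206, and 45.4, 0 and 27.6 in +Dox, on NFILZ-206 and NFILZ-205 in replicate 1 and on NFILZ-205 alone in replicate 3. The upstream share was 18.7% to 22.9% in −Dox and 0%, 10.0% and 27.5% in +Dox, so the shares overlapped between the groups. All NFILZ transcripts with counts encode the same number of residues (289).

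HPGD and CALB1 were spread over more transcripts. HPGD had counts on 12 of 14 annotated transcripts. Those within 100 bases of the HPGD-202 start held 719, 741 and 1104 counts in −Dox and 210, 323 and 449 in +Dox, and those from over 100 bases upstream held 196, 232 and 222 against 146, 128 and 114. Both start regions thus held fewer estimated counts in every +Dox library than in any −Dox library. HPGD was chosen for its fall in these libraries, so this is a description. The upstream share was 16.5% to 23.4% in −Dox and 20.2% to 40.5% in +Dox. These divisions are Salmon estimates. HPGD-213 took 90.6 counts in +Dox replicate 1 and 0 elsewhere, and HPGD-214 was at 0 only in that library. For CALB1, transcripts with the CALB1-201 start held 79.5% to 93.8% of counts in each library. CALB1-202, a retained intron transcript, had 154, 157 and 217 counts in −Dox and 35, 57 and 64 in +Dox. Retained intron transcripts together made up 6.52% to 8.01% of CALB1 counts in −Dox and 4.83% to 6.85% in +Dox.

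**Figure D3:**
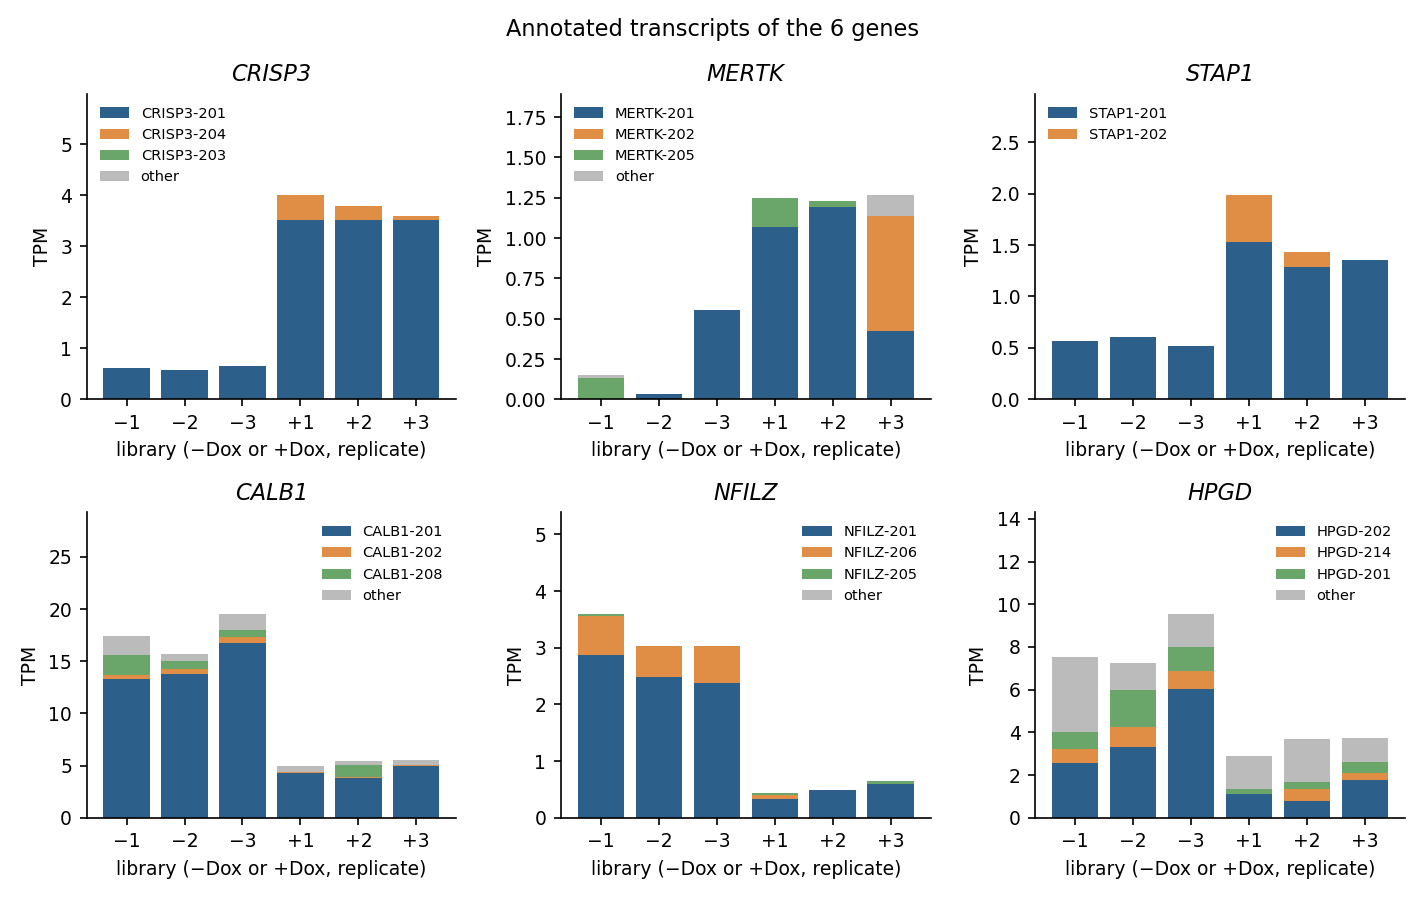
TPM of the annotated transcripts of each gene in each library (−1 to −3 are −Dox and +1 to +3 are +Dox replicates); colours are the 3 transcripts with the most counts and grey the sum of the others. CRISP3, STAP1, CALB1 and NFILZ rest mainly on 1 transcript, while MERTK differs between libraries, with MERTK-202 in +Dox replicate 3 alone.

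Genes that work with each of the 6 were taken from lists, and each gene was read from the fit across all genes. Here and below, counts of list genes that rose or fell are of genes with an adjusted p under 0.05. Of 124 genes in 7 lists, 88 were tested and 20 had an adjusted p under 0.05 in edgeR, 8 higher and 12 lower. That is 22.7%, where 15.8% of all genes tested passed (8.16% higher and 7.68% lower). The lists were chosen with earlier results of these data known, so this comparison is a description and not a test. The median log2 fold change was −0.05 over the 88 genes and 0.01 over all genes tested. The count of 20 fell to 12 without −Dox replicate 3 or without +Dox replicate 2, and to 11 with a transcript length offset.

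The prostaglandin list, set beside HPGD, had 19 of 25 genes tested, of which 1 rose and 4 fell. PTGS1, the constitutive cyclooxygenase, rose from 24.5 ± 2.11 to 32.5 ± 1.42 CPM (SD, n = 3; log2 fold change 0.41, edgeR adjusted p = 0.00159). PTGS2, the inducible cyclooxygenase, fell from 0.932 ± 0.0517 to 0.497 ± 0.041 CPM (log2 fold change −0.91, adjusted p = 0.0385). The thromboxane receptor gene TBXA2R fell by 0.57 on the log2 scale (adjusted p = 0.00109). The prostaglandin E synthases PTGES2 (−0.22, adjusted p = 0.0152) and PTGES3 (−0.20, adjusted p = 0.00705) fell less. PTGES3 was the most abundant of the list at 332 TPM, with the exporter ABCC4 (log2 fold change 0.02) behind PTGES2. PTGER2, PTGDR and PTGFR, receptors for prostaglandins, and the importer SLCO2A1 had no counts in any library. Other receptor genes did have counts: PTGER3 was at 12.55 to 15.44 TPM over all libraries (log2 fold change −0.10), and PTGIR and PTGDR2 were lower. These receptor genes did not pass and were looked up after the values were seen. The PTGS2 call was lost without any 1 library (adjusted p 0.0627 to 0.123), with all genes of any count, with a transcript length offset and with the replicate block (0.0722). That of PTGES2 was lost without replicate 3 of either group, and that of PTGES3 with the replicate block (0.0629).

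The list of TAM receptors, ligands and engulfment genes, set beside MERTK, had 17 of 22 genes tested, of which 2 rose and 2 fell. PROS1, which encodes the MERTK ligand protein S, rose from 84.0 ± 2.14 to 119 ± 2.04 CPM (SD, n = 3; log2 fold change 0.50, edgeR adjusted p = 1.61e-05). AXL, a TAM receptor, fell from 7.30 ± 0.367 to 5.64 ± 0.613 CPM (log2 fold change −0.37, adjusted p = 0.0337). TYRO3, the remaining TAM receptor, was at 12.1 ± 1.1 and 12.2 ± 1.26 CPM and the ligand gene GAS6 at 12.7 ± 1.18 and 14.6 ± 0.256 CPM, and neither passed (both were looked up after the values were seen). Of the integrins that bind apoptotic cells, ITGAV rose (0.30, adjusted p = 0.0148) and ITGB5 fell (−0.60, adjusted p = 0.00114). RAC1 (98.6 TPM, log2 fold change −0.05) and MFGE8 (0.09) were among the most abundant and did not pass. A transcript length offset ended the calls of AXL and ITGAV (adjusted p = 0.145 and 0.157 in edgeR). So did leaving out −Dox replicate 3 or +Dox replicate 2 for both genes, −Dox replicate 2 or +Dox replicate 1 for AXL, and +Dox replicate 3 for ITGAV.

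The list of kinases, receptors and adaptors around STAP1 had 18 of 20 genes tested, of which 1 rose and 2 fell. BTK, a kinase of the TEC family that acts in B cell receptor signalling, rose from 132 ± 4.92 to 192 ± 1.93 CPM (SD, n = 3; log2 fold change 0.54, edgeR adjusted p = 8.89e-06). The stem cell factor receptor KIT fell from 7.27 ± 0.983 to 5.31 ± 0.859 CPM (log2 fold change −0.45, adjusted p = 0.042). The adaptor gene DOK2 fell from 5.92 ± 0.452 to 3.73 ± 0.0513 CPM (log2 fold change −0.66, adjusted p = 0.0016). CRKL (65.0 TPM, log2 fold change −0.13, adjusted p = 0.0504) and GRB2 (−0.03) did not pass. The KIT call was lost with a transcript length offset (adjusted p = 0.128) and without any 1 library other than −Dox replicate 1 (0.0549 to 0.157, edgeR). Of 6 B cell markers, among them MS4A1, CD79A, PAX5, CD22 and CR2, 3 were tested and none passed. MS4A1 and PAX5 had no counts, and the summed level of the 6 was 3.58 to 4.29 TPM in −Dox and 2.92 to 4.42 in +Dox.

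Relatives of CRISP3 in the CAP superfamily, with its binding partner A1BG, had 9 of 16 genes tested, of which 3 passed, all of them higher. At any p, 5 of the 9 were higher and 4 lower. GLIPR2, a CAP protein at the Golgi, rose from 2.79 ± 0.254 to 6.20 ± 0.172 CPM (SD, n = 3; log2 fold change 1.16, edgeR adjusted p = 4.47e-05). CLEC18A (2.14-fold, adjusted p = 0.045) and CLEC18B (0.64, adjusted p = 0.00969) also rose, while CLEC18C was at 1.09 and 0.41 CPM and did not pass (it was looked up after the values were seen). These CLEC18 genes are near-identical copies, so how reads were divided among them is uncertain. The log2 fold change of CLEC18A was 0.79 to 1.59 without 1 library. Its call was lost without any 1 library other than −Dox replicate 2 (adjusted p 0.0625 to 0.166) and with a transcript length offset, which also ended that of CLEC18B. A1BG was the most abundant of the list at 36.9 TPM (log2 fold change 0.16) and did not pass.

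Of 15 genes of neutrophil granules only 6 were tested, and TCN1, a vitamin B12 carrier, fell from 0.93 ± 0.24 to 0.369 ± 0.0764 CPM (SD, n = 3; log2 fold change −1.32, edgeR adjusted p = 0.0139). OLFM4 and BPI had no counts in any library, ABCA13 was the most abundant at 1.14 TPM, and LCN2 (log2 fold change 0.06) did not pass. The TCN1 call was lost without −Dox replicate 2 (adjusted p = 0.0843) or +Dox replicate 1 (0.0554). The summed level of the 15 was 2.88 to 3.37 TPM in −Dox and 2.43 to 3.57 TPM in +Dox, and did not separate the groups. Of the macrophage markers CD14, CD68, CD163, CSF1R, ITGAM, FCGR3A and MRC1, 3 of 7 were tested. CD68, a lysosomal protein and the most abundant of them at 8.68 TPM, fell (log2 fold change −0.62, adjusted p = 0.00039), and none passed as higher. The summed level of the 7 was 12.4, 10.8 and 10.9 TPM in −Dox and 7.34, 6.70 and 6.86 TPM in +Dox, lower in every +Dox library. Most of this sum is CD68, so it mainly repeats the fall of that gene. The part of these markers in the levels of the 6 genes was not tested.

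The calcium list, set beside CALB1, had 10 of 17 genes tested, of which 1 rose and 1 fell. SCGN (secretagogin), a calcium-binding relative of CALB1, had 1, 10 and 2 counts in −Dox and 33, 28 and 20 in +Dox (log2 fold change 2.62, SE 0.71, edgeR adjusted p = 0.0252). Leaving out −Dox replicate 2 gave SCGN a log2 fold change of 4.08, and leaving out −Dox replicate 1 gave 2.13. The SCGN call was lost without −Dox replicate 1 or 3 or +Dox replicate 1 or 2 (adjusted p 0.0527 to 0.0922) and with a transcript length offset (0.0613). VDR, the vitamin D receptor, fell from 4.47 ± 0.73 to 3.03 ± 0.362 CPM (SD, n = 3; log2 fold change −0.56, adjusted p = 0.0251), a call that was lost with a transcript length offset and without −Dox replicate 3 or +Dox replicate 2 or 3 (0.0688 to 0.116). The calmodulin gene CALM2 (582 TPM, log2 fold change 0.07) and the endoplasmic reticulum store protein CALR (0.00) did not pass. The epithelial markers EPCAM, KRT8, KRT18, KRT19 and CDH1 were given because CALB1 is made in epithelium: 4 of 5 were tested, KRT8 was the most abundant at 193 TPM, and none passed. Their summed level was 441, 444 and 520 TPM in −Dox and 410, 405 and 449 TPM in +Dox, which overlap.

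The list of NFIL3, PAR and CEBP factors, relatives of NFILZ, had 9 of 10 genes tested, of which 2 passed, both lower. At any p, 2 of the 9 were higher and 7 lower. CEBPB fell by 0.30 (edgeR adjusted p = 0.0135) and CEBPG by 0.23 (adjusted p = 0.0327) on the log2 scale. The CEBPG call was lost without any 1 library other than −Dox replicate 2 (adjusted p 0.0518 to 0.124) and with the replicate block (0.055), and that of CEBPB with a transcript length offset (0.0746). DDIT3, the most abundant at 40.7 TPM (log2 fold change −0.04), did not pass. NFIL3 itself averaged 11.0 ± 1.24 CPM without Dox and 10.6 ± 0.959 CPM with Dox (SD, n = 3; looked up after the values were seen), so the 5.90-fold drop of NFILZ stood beside a change of −0.06 on the log2 scale in its namesake.

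**Figure D4:**
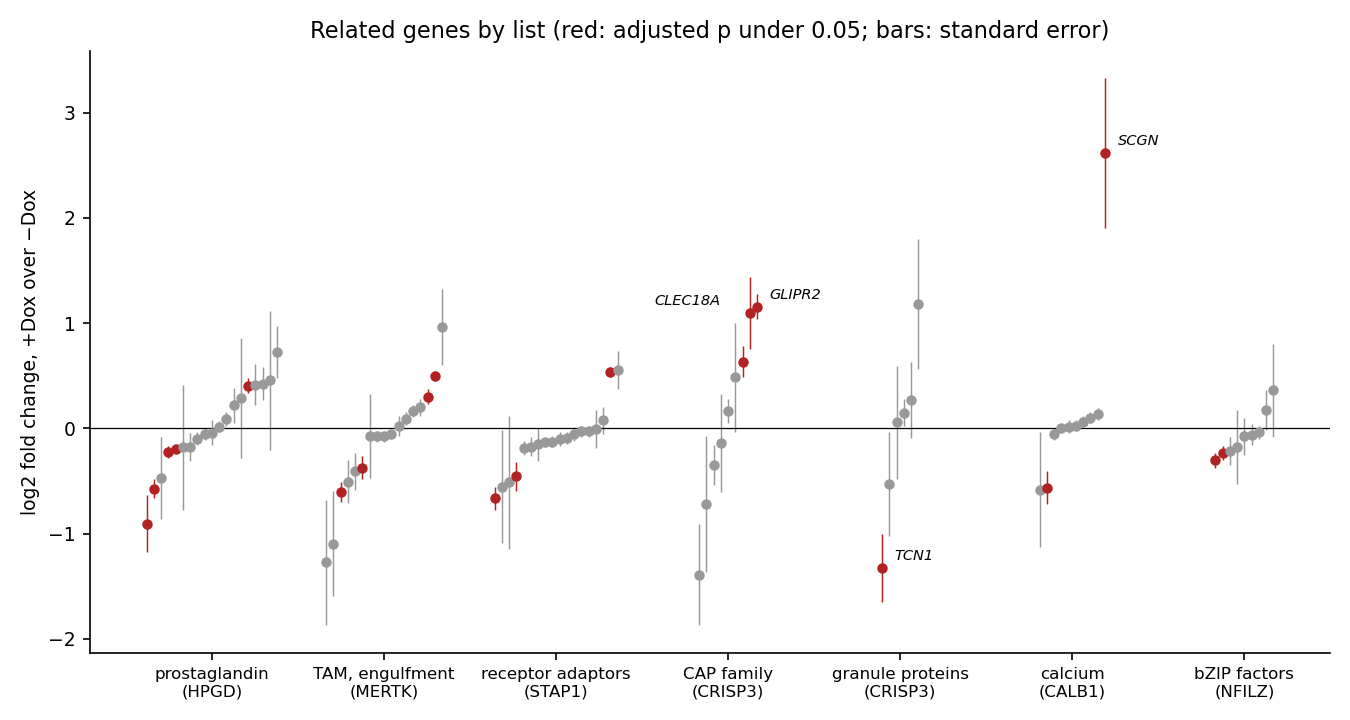
Log2 fold change (+Dox over −Dox) of the tested genes of the 7 lists, ordered within each list, with the standard error as bars; red marks an adjusted p under 0.05. Of 88 genes, 20 are red, and those past 1 in size are SCGN, GLIPR2, CLEC18A and TCN1.

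The 11 markers of the red cell and K562 list moved in both directions beside these genes. TAL1 (log2 fold change 0.44, edgeR adjusted p = 8.34e-05) and KLF1 (0.46, adjusted p = 0.00121) were among the 3 that rose. HBZ (−0.40, adjusted p = 0.00213) and TFRC (−0.34, adjusted p = 0.000856) fell. The summed level of the 11 markers was 20080 to 21000 TPM in −Dox and 19730 to 20210 TPM in +Dox. Their part in the levels of the 6 genes was not tested.

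The 2 nearest tested genes on each side of the 6 gave 24 neighbours, of which 18 did not pass and 6 passed (25.0%, against 15.8% of all genes tested), 3 higher and 3 lower. Only at CALB1 did a whole side move with the gene. The neighbouring noncoding gene ENSG00000254180, 103 kb away, fell from 0.782 ± 0.286 to 0.24 ± 0.0375 CPM (SD, n = 3; log2 fold change −1.69, edgeR adjusted p = 0.00887). LINC00534, 126 kb away and overlapping it in position, fell from 22.2 ± 0.366 to 14.2 ± 1.15 CPM (log2 fold change −0.64, adjusted p = 8.02e-05). Without −Dox replicate 3 the call of ENSG00000254180 was lost (adjusted p = 0.0594). On the other side of CALB1, DECR1 and NBN did not pass.

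The other neighbours that passed changed by less than 0.3 on the log2 scale. RHAG (0.20, edgeR adjusted p = 0.00987), a red cell membrane protein, is a neighbour of CRISP3, and CEP44 (0.20, adjusted p = 0.0181) of HPGD. Beside MERTK, TMEM87B rose (0.27, adjusted p = 0.00531) and ANAPC1 fell (−0.22, adjusted p = 0.011). The calls of RHAG and CEP44 were lost with the replicate block (adjusted p = 0.0664 and 0.0571) and those of ANAPC1 and TMEM87B with a transcript length offset. CEP44 also lost its call without −Dox replicate 3 or +Dox replicate 2 or 3, and ANAPC1 without +Dox replicate 1. No neighbour of STAP1 (CENPC, ENSG00000250075, ENSG00000279464 and UBA6) or of NFILZ (ADAMTS10, MYO1F, ACTL9 and ZNF558) passed. Nor did ENSG00000279127, ENSG00000290804 and ENSG00000286405 beside CRISP3, FBXO8 beside HPGD, or EEF1E1P1 and ENSG00000286904 beside MERTK. ACTL9, next to NFILZ, had 0.478 ± 0.415 CPM without and 0.0276 ± 0.0478 CPM with Dox, a difference of −3.97 on the log2 scale (edgeR adjusted p = 0.0524). The pseudogene ENSG00000250596, only 0.547 kb from HPGD, was at 0.318 ± 0.21 and 0.0728 ± 0.0331 CPM (log2 fold change −2.11, adjusted p = 0.0605), and GLRA3 beyond it at 0.276 ± 0.0811 and 0.605 ± 0.173 CPM (1.13, adjusted p = 0.071).

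**Figure D5:**
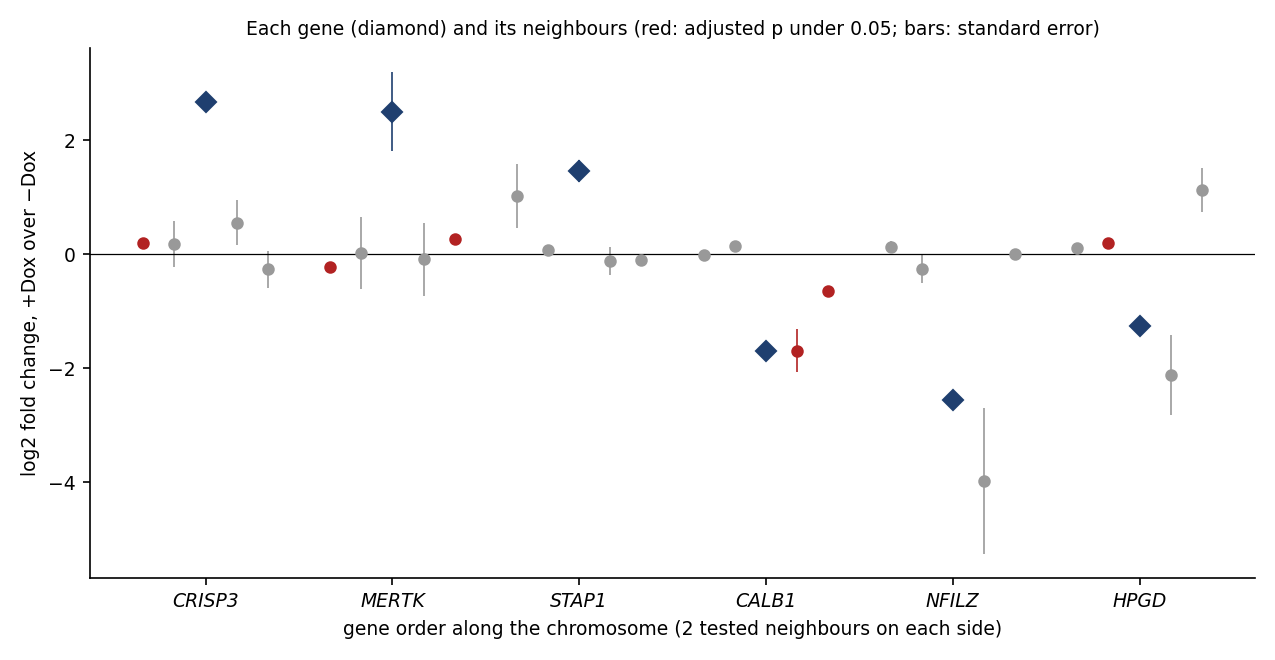
Log2 fold change (+Dox over −Dox, with standard error) of each of the 6 genes (diamonds) and of its 2 nearest tested neighbours on each side, in chromosome order; red marks neighbours with an adjusted p under 0.05. CALB1 has 2 lower neighbours on 1 side, and the widest bars belong to neighbours with few counts.

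Across the 6 libraries, the genes whose pattern was nearest to each of the 6 were found as the smallest root mean square difference of centred log2 CPM, over 14330 genes with a mean of at least 1 CPM. These patterns hold the change between the groups that the 6 were chosen for. Genes with a change of like direction and size are therefore near by construction, and nearness is given as a description. For CALB1 these included DLGAP1-AS2 (difference 0.0853) and ENSG00000271959 (0.12). For HPGD they were ENSG00000289609 (0.108), CD44 (0.115), a hyaluronan receptor, and COL15A1 (0.118), a collagen. For NFILZ they were IL6 (0.259), an inflammatory cytokine, S1PR1 (0.33), a sphingosine-1-phosphate receptor, and PDGFB (0.361), a growth factor.

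Of the genes that rose, STAP1 was nearest to RSAD2 (0.118), an antiviral protein, LINC00891 (0.119) and ALAS2 (0.136), the red cell enzyme that starts heme synthesis. CRISP3 was nearest to FAXDC2 (0.317), RHCE (0.35), a blood group gene, and EPB42 (0.357), a red cell membrane protein. MERTK had no close match, with ENSG00000285608 (1.09), EPB42 (1.19) and CRISP3 (1.37) the least far. Among the 6 themselves, where the same limit holds, CALB1 and HPGD were nearest (0.259), then CALB1 and NFILZ (0.471) and CRISP3 and STAP1 (0.626). None of the 3 nearest genes was among the 3 with the highest Pearson correlation to the same gene, so the names depend on the measure.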

How the data were processed

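The authors quantified paired-end polyA libraries with Salmon 1.10.2, per the submitters' processing notes, and deposited, per transcript (252045) and library (6), estimated counts and TPM. Replicates were not pooled, and the index and strand setting are not given in the sources used here. Deposited TPM values had equal totals in all libraries. Transcripts were matched to GENCODE 44 (251612 matched, 433 not), and estimated counts were summed over 62252 genes and rounded. The 21045 genes whose counts averaged over 10 entered the quasi-likelihood test of edgeR 4.0.16 (R 4.3.3, TMM, two-sided, Benjamini-Hochberg). TMM factors were 0.974 to 1.03. The 6 genes and all lists were chosen with earlier results of these data known, so no p is given for the 6.

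The genes named are the 6, every list gene with an adjusted p under 0.05 and the 3 most abundant of each list, all neighbours, and the 3 genes most like each of the 6. A few genes under this rule are not reported here. Genes next in rank, PCBP1 and genes said to be looked up are outside this rule. Alternatives were DESeq2 1.42.0, RLE factors, other count limits, a transcript length offset, each library left out, a replicate block, log2(TPM + 0.1) and Pearson correlation. On simulated data for +Dox against −Dox (21045 genes, 200 changed by 2 on the log2 scale) edgeR called 177 and 14 unchanged genes. Figures used matplotlib 3.10.9.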

Additional observations from a re-analysis of the deposited data

How the results depend on the processing

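The number of genes called was 308, and 515 with all genes of any count, where 35586 genes were tested. DESeq2 called 250, a transcript length offset 232, and fits without 1 library 231 to 313. The 6 genes were chosen on these libraries, so their fold changes under the alternatives are given as a description, and MERTK had too few counts for the limit of 10 in every library. The log2 fold change of MERTK was 1.96 to 5.23 without 1 library, and that of CRISP3 was 2.44 as a difference of mean log2(TPM + 0.1). List genes with an adjusted p under 0.05 numbered 11 with a transcript length offset and 12 to 20 without 1 library. Of the 26 list and neighbouring genes that passed, none changed direction, and 8 passed in every fit (PROS1, BTK, PTGS1, TBXA2R, GLIPR2, ITGB5, DOK2 and LINC00534). PTGS2 passed in 3 of 12 alternatives, KIT, CLEC18A and CEBPG in 6 of 12, and SCGN in 5 of 10.

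Replicate numbers are not stated to pair the libraries, and same-numbered libraries did not deviate together (r = 0.00752, −0.0605 and −0.00285). With the replicate block edgeR called 298 genes. With 3 libraries per group, an exact permutation test of 1 gene could not give a p below 0.1. Genes with few counts, such as SCGN and MERTK in −Dox, are the least precise.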
